A study of Mus musculus with 2 samples.

Results

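Intermediate filaments are the ropes of the animal cytoskeleton, and the genes described here encode those of neurons, of glia and progenitor cells, and of the nuclear lamina. The set was chosen by name and holds 10 genes of the 45578 in the deposited table. There are 5 neuronal filament genes (Nefl, Nefm, Nefh, Ina and Prph), 3 glial and progenitor filament genes (Vim, Nes and Gfap) and 2 lamin genes (Lmna and Lmnb1). Their footprints were read from whole brain by RiboLace, a pull-down of translating ribosomes on beads that carry a puromycin analogue, followed by sequencing of the ribosome-protected fragments. The brains came from control mice at postnatal day 5, with 1 functional copy of the mouse Smn gene and a human SMN2 transgene (genotype Smn+/-; SMN2tg/0) on a congenic FVB background. All material carried this genotype, so the series has 1 group of 2 biological replicates and no second condition. The design text speaks of brain extracts from a mouse, and whether the replicates came from separate animals is not given in the sources used here. The spread between them may therefore be technical.

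As background, intermediate filament proteins share a coiled-coil rod and assemble from staggered tetramers without nucleotide hydrolysis. In axons the light, medium and heavy neurofilament subunits co-assemble with alpha-internexin, and the long tails of the medium and heavy subunits, which are phosphorylated as axons mature, space the filaments and widen the axon. Vimentin and nestin are the filaments of neural stem cells and radial glia, and GFAP is the defining filament of astrocytes. Lamins line the inner nuclear membrane, and brain neurons are known for low lamin A, whose messenger RNA is silenced by a brain microRNA, with lamin C as the main A-type product.

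Replicate 1 held 343552 counts at the gene level and replicate 2 held 120282. Each gene is given by its transcript with the most counts. Abundances are in CPM, counts scaled to the effective size of each library, and a single count corresponded to 2.71 CPM (replicate 1) or 8.93 CPM (replicate 2). Together the 10 genes had 685 and 213 counts, or 0.245% (95% Wilson interval 0.227 to 0.264) and 0.242% (0.212 to 0.277) of the counts of protein-coding genes. All intervals given here are for counting error only and treat each read as a separate molecule. The reads were amplified by PCR and carry no molecular identifiers, so copies of the same molecule would make these intervals too narrow. Brain cell markers were present: each of the 7 neuronal markers and each of the 7 astrocyte and radial glia markers had counts in both libraries, and the neuronal list summed to 6125 CPM and 7135 CPM. Markers of meninges and fibroblasts stood at 463 CPM and 723 CPM and those of endothelium and mural cells at 295 CPM and 348 CPM, so cells that also make vimentin and A-type lamins were part of the material. The 4 markers of peripheral and brainstem motor neurons had 4 and 2 counts in sum, with Mnx1 at 0 in both libraries. In such bulk material, footprints alone do not tell apart fewer cells of a type, less RNA per cell and fewer ribosomes per RNA.

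The light neurofilament subunit and alpha-internexin led the set. Nefl (ENSMUSG00000022055), which encodes the core subunit that neurofilaments need for assembly, had 167 counts in replicate 1 and 43 in replicate 2. Ina (ENSMUSG00000034336), which encodes alpha-internexin, a subunit made early in neuronal differentiation, had 139 and 50. Per length of coding sequence, the main scale used here to compare genes, Ina stood at 250 and 296 CPM per kb and Nefl at 277 and 235 CPM per kb. The order of these genes turned between the libraries, with Nefl ahead in replicate 1 and Ina ahead in replicate 2. Their means were 273 ± 32.8 CPM per kb for Ina and 256 ± 29.7 CPM per kb for Nefl (each SD, n = 2). The density ratio of Ina to Nefl was 0.902 in replicate 1 (exact 95% interval 0.715 to 1.14) and 1.26 in replicate 2 (0.821 to 1.94), so the pair was not separated.

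The medium and heavy neurofilament subunits, whose tails form the side arms between filaments, were less dense. Nefm (ENSMUSG00000022054) had 122 and 36 counts on a coding sequence of 2547 nucleotides, or 130 and 126 CPM per kb. Nefl exceeded Nefm in both libraries, by 2.14-fold in replicate 1 (1.68 to 2.72) and 1.86-fold in replicate 2 (1.17 to 2.99). Nefh (ENSMUSG00000020396), with the longest coding sequence of the neurofilament subunits at 3273 nucleotides, had 19 and 4 counts, or 15.7 and 10.9 CPM per kb. This was 17.6-fold below Nefl in replicate 1 (10.9 to 30.0) and 21.6-fold below it in replicate 2 (7.84 to 82.7). Nefm exceeded Nefh 8.25-fold (5.06 to 14.2) and 11.6-fold (4.15 to 44.7). The heavy subunit was the sparsest of the neurofilament genes in each library.

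Prph (ENSMUSG00000023484) encodes peripherin, the filament of peripheral neurons and of brain neurons that project outside the central nervous system. With 4 and 3 counts in the respective libraries, it stood at 7.59 CPM per kb (exact Poisson interval 2.07 to 19.4) and 18.8 CPM per kb (3.87 to 54.8). Ina was 33.0-fold denser in replicate 1 (12.6 to 123) and 15.8-fold denser in replicate 2 (5.11 to 79.2). Peripherin was detected in both libraries, at a depth that leaves its level uncertain by several-fold.

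Among the glial and progenitor filaments, vimentin was the most abundant and nestin the least. Vim (ENSMUSG00000026728), the filament of radial glia, immature astrocytes, endothelium and fibroblasts, had 89 and 26 counts, or 172 and 166 CPM per kb. Gfap (ENSMUSG00000020932) had 49 and 17 counts, or 103 and 117 CPM per kb. The density of Vim was 1.68-fold that of Gfap in replicate 1 (1.17 to 2.43) and 1.41-fold in replicate 2 (0.737 to 2.77), where the interval included 1. Gfap stood below each of the 7 astrocyte and radial glia markers in both libraries, which ranged in mean from Slc1a2 at 137 to Fabp7 at 1989 CPM per kb. The lowest marker was close to Gfap in replicate 2, where Slc1a2 had 24 counts (125 CPM per kb) and Gfap 17 (117). Of these markers, Gfap was compared by an interval with Slc1a3 alone. The glutamate transporter Slc1a3, at 252 and 323 CPM per kb, exceeded Gfap 2.46-fold (1.77 to 3.46) and 2.75-fold (1.58 to 5.03). Vim lay within the lower end of these markers, above Slc1a2 (150 and 125 CPM per kb) in both libraries, above Aqp4 (159 and 184) in replicate 1 alone, and below the other 5. Nes (ENSMUSG00000004891), which encodes the large progenitor filament nestin on a coding sequence of 5595 nucleotides, had 6 counts in each library, or 2.91 and 9.58 CPM per kb. Vim exceeded Nes 59.2-fold (26.2 to 166) and 17.3-fold (6.97 to 51.4). Of the 4 markers of dividing progenitors, Mki67 (4.62 ± 0.0956 CPM per kb), Pax6 (7.79 ± 1.06) and Top2a (9.98 ± 2.41; each SD, n = 2) had low densities like that of Nes. The transcription factor Sox2, with 33 and 11 counts, exceeded Nes 32.1-fold (13.3 to 93.6) and 10.7-fold (3.62 to 35.2). Slc1a3, Sox2 and Tubb3 (named below) are the first entries of their marker lists, and this choice was made with the values known.

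In the nuclear lamina, the lamin B1 gene exceeded the gene of the A-type lamins. Lmnb1 (ENSMUSG00000024590), which encodes lamin B1, had 71 and 22 counts, or 109 and 111 CPM per kb. Lmna (ENSMUSG00000028063), which encodes lamins A and C by alternative splicing, had 19 and 6 counts, or 29.8 and 31.1 CPM per kb. Lmnb1 was 3.65-fold denser in replicate 1 (2.17 to 6.41) and 3.58-fold denser in replicate 2 (1.41 to 10.8). With transcripts summed the means were closer, at 61.1 CPM per kb for Lmnb1 and 40.0 for Lmna. On the main scale this was the only one of the 9 neighbouring pairs in the order of densities whose intervals lay above 1 in both libraries. Lmnb2, the other B-type gene, had 17 and 2 counts, or 24.9 and 9.66 CPM per kb. These densities were below those of Lmna in both libraries, but counts were low and no interval was computed for this pair. The density of Lmnb2 was 0.229 of that of Lmnb1 in replicate 1 (0.126 to 0.393) and 0.0869 in replicate 2 (0.00991 to 0.354).

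**Figure D1:**
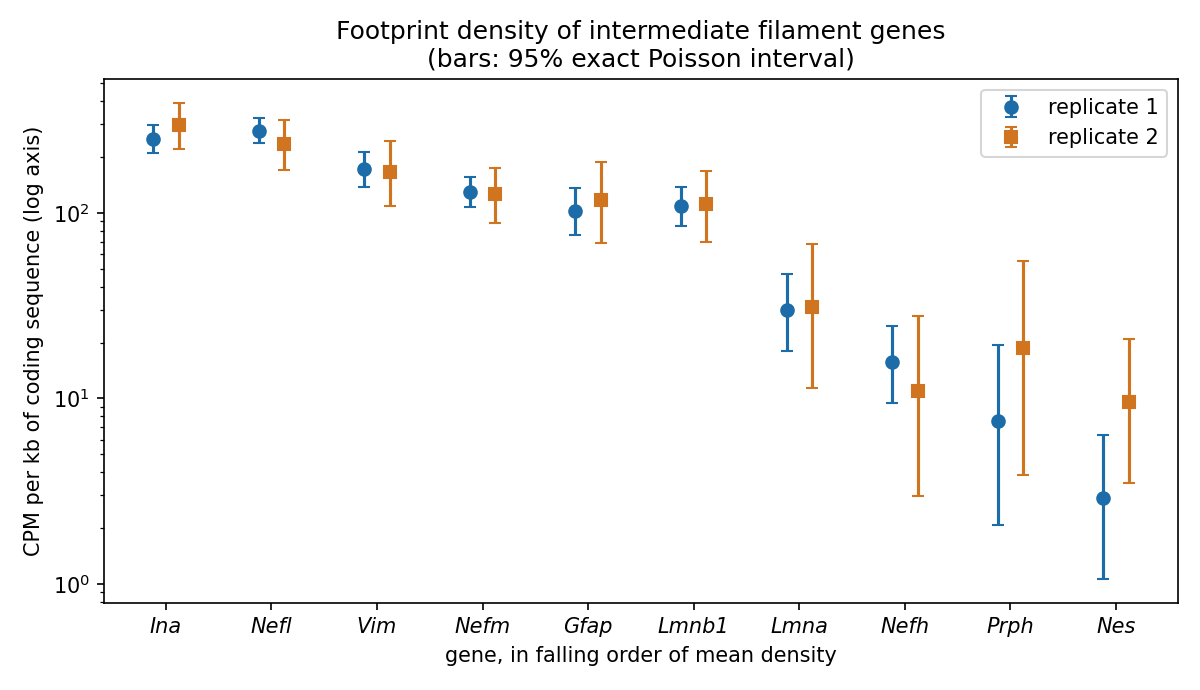
Footprint density (CPM per kb of coding sequence, log axis) of each gene in replicate 1 (circles) and replicate 2 (squares), with 95% exact Poisson intervals. Ina, Nefl, Vim, Nefm, Gfap and Lmnb1 lie at or above 103 CPM per kb in both libraries, and Lmna, Nefh, Prph and Nes lie at or below 31.1 CPM per kb.

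By mean density the order was Ina, Nefl, Vim (169 ± 4.55 CPM per kb), Nefm (128 ± 2.54), Gfap (110 ± 10.4), Lmnb1 (110 ± 1.62), Lmna (30.5 ± 0.856), Nefh (13.3 ± 3.41), Prph (13.2 ± 7.90) and Nes (6.24 ± 4.72; each SD, n = 2). The plot of densities shows a gap below Lmnb1 that splits the set into 6 dense and 4 sparse genes. Apart from Lmnb1 and Lmna, no neighbours in this order were separated in both libraries. Of all 45 pairs, 31 were. Against the 4294 protein-coding genes that passed the count filter and had a coding length, the mean density of Ina lay at percentile 87.5, that of Nefl at 86.4, Vim at 78.9, Nefm at 72.0, Gfap at 67.5 and Lmnb1 at 67.5. Lmna lay at percentile 24.7 and Nefh at 5.87. These low percentiles hold only among genes past the filter, which removes genes with few counts. Among all protein-coding genes with a coding length, Lmna lay at percentile 79.1 and Nefh at 65.1. The leading filaments were well below Tubb3, the beta-tubulin of neurons, which had 2125 and 2673 CPM per kb. Tubb3 exceeded Nefl 7.66-fold (6.50 to 9.08) and 11.4-fold (8.28 to 15.9). The other neuronal markers were spread on both sides of Nefl and Ina. Stmn2 (2198 and 2679 CPM per kb) and Snap25 (572 and 590) lay above both genes, and Syt1 (291 and 289) and Dcx (252 and 277) lay near them. Map2 (179 and 181) and Rbfox3 (72.3 and 39.7) lay below both genes in each library.

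This order and its gaps depend on how a gene's transcripts are represented and on the length used. Nefl, Nefh and Ina have 1 transcript in the table, while Vim has 6 and Lmna has 7. With the counts of all transcripts of a gene summed, Vim led at 255 CPM per kb, ahead of Ina at 137 and Nefl at 128, and Gfap at 110 passed Nefm at 92.9. A sum counts a fragment again for each transcript that lists it. Nefh, Prph, Nes and Lmna were the 4 lowest genes under this alternative too. Per kb of the whole transcript the order was kept, except that Lmnb1 at 68.4 CPM per kb passed Gfap at 53.7. On this scale the neuronal filaments lay closer together, with means of 127 for Ina, 124 for Nefl and 97.8 CPM per kb for Nefm.

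Shares of counts describe the make-up of each filament class. The neuronal filaments held 75.8% of the counts of the 8 cytoplasmic filament genes in replicate 1 (451 of 595; 95% Wilson interval 72.2 to 79.1) and 73.5% in replicate 2 (136 of 185; 66.7 to 79.3), or 74.7% ± 1.62 (SD, n = 2). With transcripts summed this mean was 56.2%. Within the neurofilament and internexin counts, Nefl held 37.4% (33.0 to 41.9) and 32.3% (25.0 to 40.7), Ina 31.1% (27.0 to 35.5) and 37.6% (29.8 to 46.1), Nefm 27.3% (23.4 to 31.6) and 27.1% (20.2 to 35.2), and Nefh 4.25% (2.74 to 6.54) and 3.01% (1.18 to 7.48). Shares of counts favour genes with long coding sequences. Divided by coding length, the neurofilament and internexin footprints were 41.2% and 35.2% Nefl and 37.2% and 44.3% Ina. Nefm then held 19.3% and 18.9%, and Nefh 2.34% and 1.63%.

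Vim held 61.8% (53.7 to 69.3) and 53.1% (39.4 to 66.3) of the glial and progenitor filament counts, and Gfap 34.0% (26.8 to 42.1) and 34.7% (22.9 to 48.7). Nes held 4.17% (1.92 to 8.79) and 12.2% (5.73 to 24.2). Divided by coding length, Vim held 62.0% and 56.6%, Gfap 37.0% and 40.1%, and Nes 1.05% and 3.27%. Lmna held 21.1% (14.0 to 30.6) and 21.4% (10.2 to 39.5) of the lamin counts, and with transcripts summed its mean share was 42.1%. In the plot of shares, the intervals of the libraries overlap for each class.

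**Figure D2:**
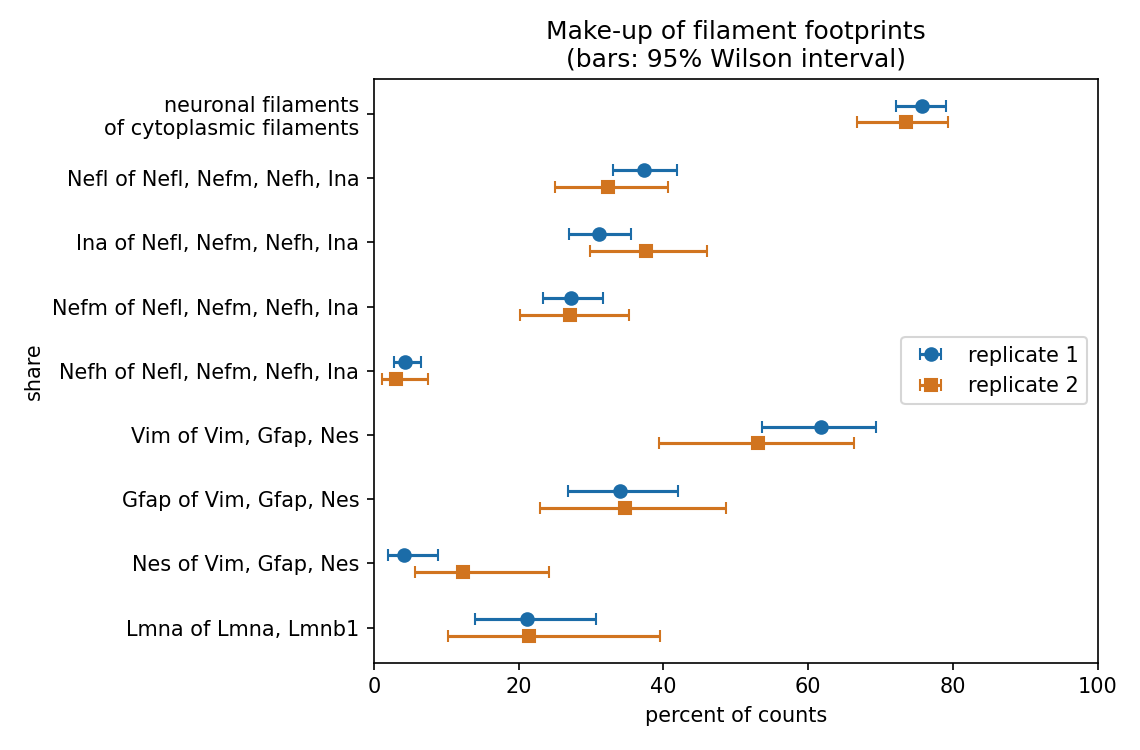
Share of footprint counts (percent, horizontal axis) held by each gene or class within the group named on the vertical axis, in replicate 1 (circles) and replicate 2 (squares), with 95% Wilson intervals. The neuronal filaments hold 75.8% and 73.5% of cytoplasmic filament counts, and the intervals of the libraries overlap for every share drawn.

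The libraries were then compared gene by gene, the only contrast in the series, with an exact binomial test over all 5436 genes whose mean count reached 10. The test compares the reads of these libraries, not conditions. Of the 10 genes 8 passed the filter, and Prph and Nes, with means below 10 counts, did not. None of the 8 differed at a Benjamini-Hochberg adjusted p under 0.05, where the background was 4.14% of all genes tested and 0.956% of the 4392 protein-coding genes among them. None differed at an unadjusted exact binomial p under 0.05 either, against 9.6% of all genes tested and 247 of the 4392 protein-coding genes among them. With edgeR's exact test at a preset coefficient of variation of 0.2 the count was also 0 of 8, against 2.41% of all genes. The median log2 ratio of replicate 2 over replicate 1 was -0.0052 for the 8 genes, beside 0.0041 for all genes tested.

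Nefl had a log2 ratio of -0.24 (counting SE 0.25, adjusted exact binomial p = 0.949) and Ina one of 0.24 (SE 0.24, adjusted exact binomial p = 0.927). As a linear ratio, Nefl stood at 0.848 (exact 95% interval 0.592 to 1.19) and Ina at 1.19 (0.840 to 1.65). The 4 genes with the narrowest log2 differences were Lmnb1 at 0.03, Nefm at -0.04, Vim at -0.05 and Lmna at 0.06. Gfap was at 0.19 (SE 0.40) and Nefh at -0.52 (SE 0.77). The intervals show what this depth can resolve: 0.651 to 1.42 for Nefm, 0.597 to 1.50 for Vim, 0.602 to 1.67 for Lmnb1 and 0.617 to 2.02 for Gfap, but 0.172 to 2.09 for Nefh. For Nes, outside the test, the ratio was 3.30 (0.881 to 12.3), and for Prph 2.47 (0.362 to 14.6). The intervals of all 10 genes include 1.

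Of the 43 marker genes listed, only those that passed the count filter were tested. Among these, Tubb3 and Col1a1 were called, both higher in replicate 2. The background was 4.14% of all genes tested and 0.956% of the protein-coding genes among them. Tubb3 had 1061 and 405 counts (log2 ratio 0.33, SE 0.084, adjusted exact binomial p = 0.00365). Col1a1, a collagen of meninges and fibroblasts, had 87 and 48 (log2 ratio 0.86, SE 0.26, adjusted exact binomial p = 0.037). Both calls were kept with DESeq2 size factors, the longest coding sequence, summed transcripts and the filter at 50 counts, with adjusted p between 0.000205 and 0.0289 for Tubb3 and between 0.00808 and 0.0376 for Col1a1. Both were lost with library totals, where the log2 ratios were 0.12 and 0.65, and with every gene counted in both libraries, where they were 0.15 and 0.68. With edgeR's exact test at the preset coefficient of variation both were lost at unchanged ratios of 0.33 and 0.86. Among coding genes alone the call of Col1a1 was lost (log2 ratio 0.88, adjusted exact binomial p = 0.129) and that of Tubb3 was kept. Vim, which fibroblasts also make, stood at 241 CPM and 232 CPM in the respective libraries. The part of such cells in the Vim count was not tested.

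**Figure D3:**
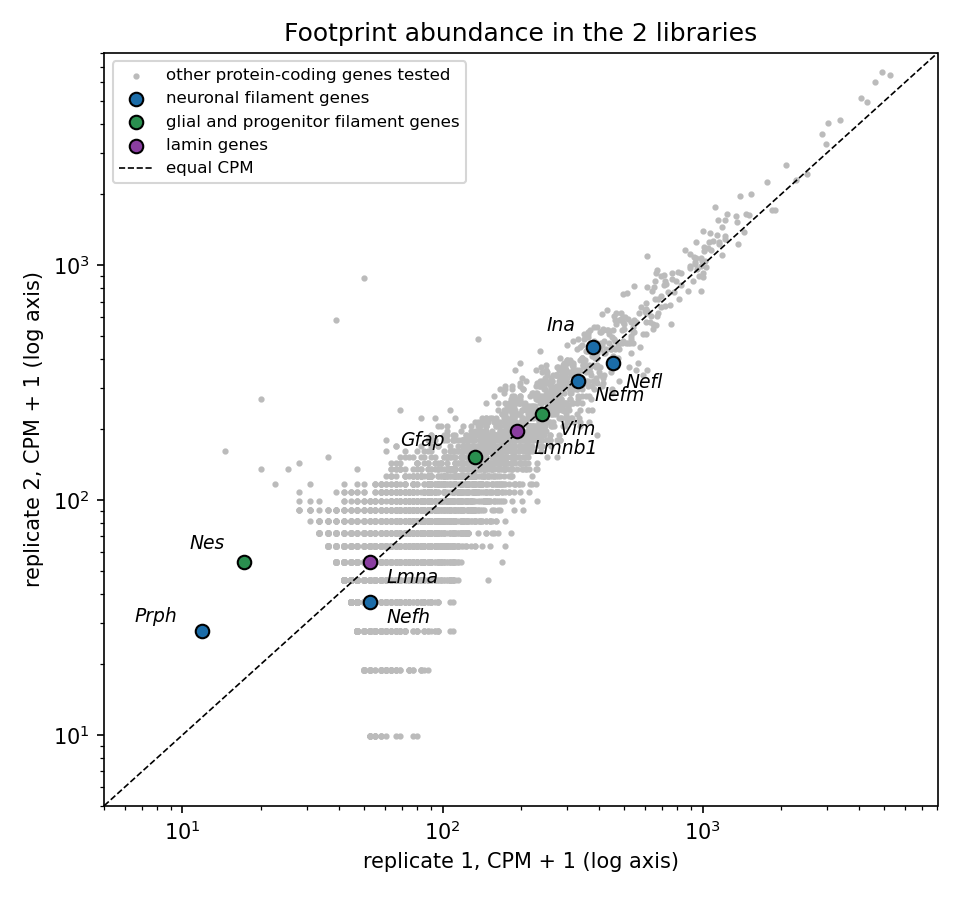
CPM + 1 in replicate 1 (horizontal) and replicate 2 (vertical), both on log axes, for protein-coding genes past the count filter (grey) and the filament genes (neuronal blue, glial and progenitor green, lamin purple), with a dashed line of equal CPM. Nefl, Nefm, Ina, Vim, Gfap and the lamins lie near the line, and Nes (ratio 3.30) and Prph (ratio 2.47), with the fewest counts, lie above it.

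The table lists 28 transcripts of these genes, of which 9 are not annotated as protein coding. Nefm has a second coding transcript, Nefm-002, whose coding sequence of 1413 nucleotides is 55.5% as long as that of Nefm-001, which encodes 848 residues. Nefm-002 had 58 and 15 counts, or 47.5% and 41.7% of those of Nefm-001. The excess of Nefm-001 was 64 counts in replicate 1 and 21 in replicate 2. The table gives no exons and no positions, so the part of the gene that these fragments came from was not analysed here.

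For Lmna, the representative transcript Lmna-002 encodes 574 residues, the length of mouse lamin C, and Lmna-001 encodes 665 residues, the length of prelamin A. Each had 19 counts in replicate 1, and they had 6 and 4 in replicate 2. Lamin A and lamin C share most of their coding sequence, so these counts do not tell their translation apart. Lmna-003, another coding transcript, had 18 counts in replicate 1 and 1 in replicate 2.

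Vim-001 had the highest counts of the vimentin transcripts. Vim-006, with 91.6% of its coding length, had 76 and 20 counts, and Vim-003, a transcript listed without a 3' untranslated region and with 28.7% of the coding length, had 27 and 6, or 30.3% and 23.1% of Vim-001. The 3 vimentin transcripts annotated as retaining an intron had 25 to 39 counts in replicate 1 and 5 to 10 in replicate 2. Fragments of exons that they share with Vim-001 cannot be told apart from fragments of their own.

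Gfap-001 and Gfap-201, which encode 430 and 428 residues, had 49 and 49 counts in replicate 1 and 17 and 15 in replicate 2. Nes-001 and Nes-003 tied at 12 counts in sum, with 6 and 6 on the first and 8 and 4 on the second, and the longer transcript was taken. With the other transcript the log2 ratio of Nes fell from 1.66 to 0.70. The 2 peripherin transcripts had 4 and 4 counts in replicate 1 and 3 and 1 in replicate 2, and the log2 ratio of Prph turned from 1.23 to -0.25 on the longer coding sequence.

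**Figure D4:**
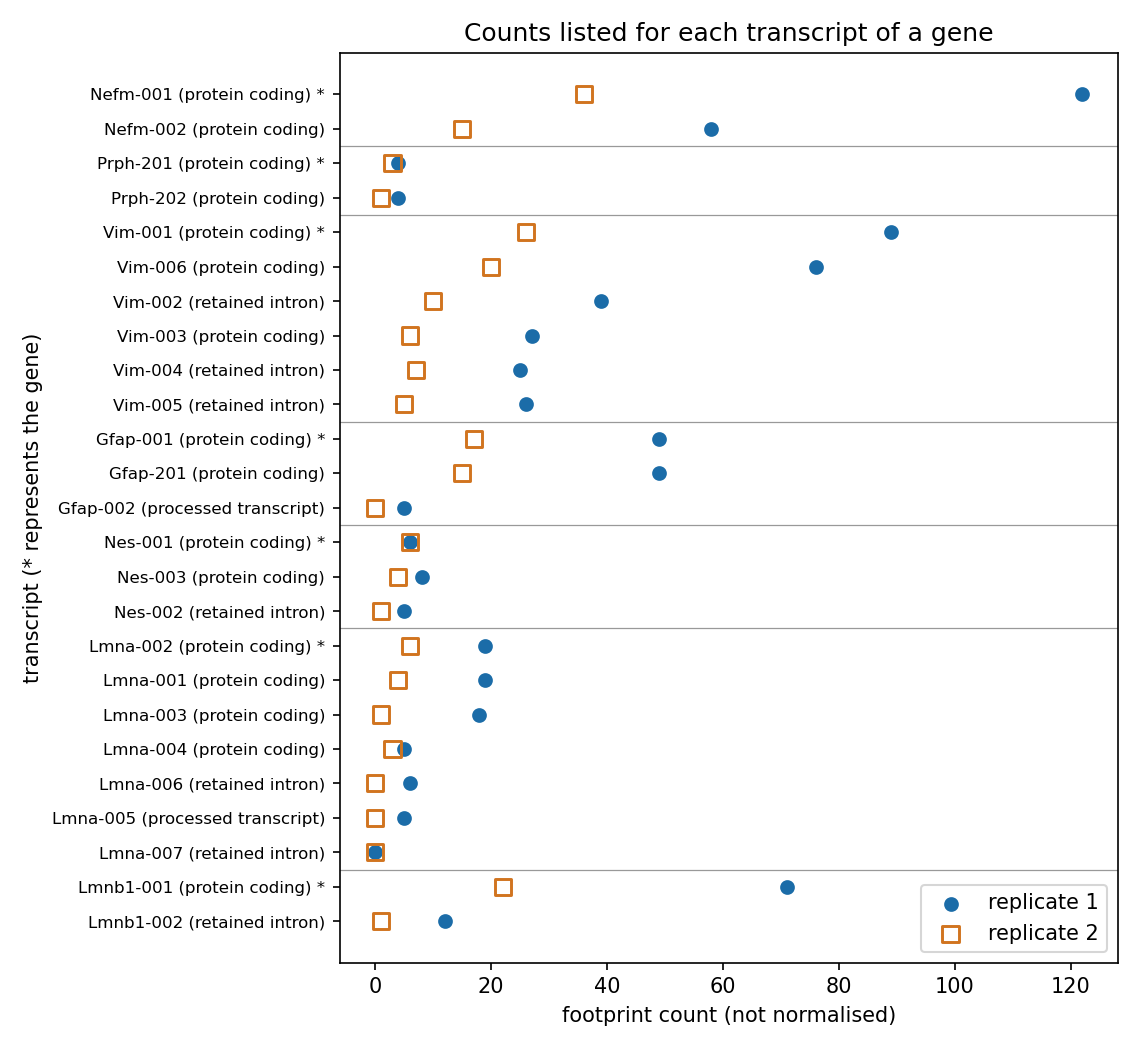
Footprint counts, not normalised (horizontal axis), of each transcript of the genes with more than 1 transcript, in replicate 1 (filled circles) and replicate 2 (open squares); an asterisk marks the transcript that represents the gene. Vim-001 and Nefm-001 lead their genes in both libraries, while Lmna-001 and Lmna-002 share 19 counts in replicate 1.

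Genes that act on or with these filaments were taken from 4 lists of 42 genes, of which 13 passed the count filter. None was called between the libraries, beside 4.14% of all genes tested and 0.956% of the protein-coding genes among them. All 6 genes listed as kinases of neurofilament tails or as an activator of such a kinase passed the count filter. The fewest counts were those of Cdk5, at 25 and 8. Cdk5r1, which encodes the p35 activator of Cdk5, led them with 124 and 37 counts and 361 ± 4.31 CPM per kb, above Gsk3b at 208 ± 5.85 CPM per kb (each SD, n = 2). Gsk3a had 89.6 ± 1.86, Mapk3 84.5 ± 2.09 and Cdk5 itself 79.2 ± 2.97 CPM per kb (each SD, n = 2). Cdk5r1, Gsk3b, Gsk3a, Mapk3 and Cdk5 were each denser than Nefh in both libraries. So were most coding genes tested, among which Nefh lay at percentile 8.36 in replicate 1 and 5.10 in replicate 2.

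Of the nuclear lamina partners and lamin processing genes, 5 of 15 were tested. Banf1, which encodes a chromatin-binding protein that joins DNA to the lamina, had 437 ± 36.4 CPM per kb and Emd, which encodes emerin of the inner nuclear membrane, 234 ± 13.9 CPM per kb. Tmpo had 33.9 ± 25.8, with 22 counts in replicate 1 and 2 in replicate 2. Lemd2 had 28.6 ± 0.593 and Lemd3 16.9 ± 1.06 CPM per kb (each SD, n = 2). Zmpste24, the protease that matures prelamin A, had 9 and 2 counts and was not tested.

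The giant cytolinkers, which tie filaments to actin and microtubules, had low densities. Macf1 had 64 and 24 counts on 22056 coding nucleotides, or 8.79 ± 1.31 CPM per kb, and Dst 31 and 7 counts, or 4.72 ± 0.979 CPM per kb (each SD, n = 2). These were the 2 tested of 7 genes listed; Eppk1 was not matched and Ppl had 0 counts in both libraries, which allows up to 3 counts in each. None of the 14 other intermediate filament genes passed the filter. They had 58 and 14 counts in sum, fewer than Lmnb1 alone. The muscle filament gene Des had 2 and 1 counts. Of the 6 epithelial keratin genes, Krt10 had 2 and 3 counts, and Krt5, Krt8, Krt14, Krt18 and Krt19 each had at most 2 in a library.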

How the data were processed

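Ribosome-protected fragments from RiboLace pull-downs of brain lysate, size selected at 25 to 35 nucleotides per the labels' protocols, were measured in 2 replicates of 1 group. The authors deposited whole-number counts per Ensembl transcript, not normalised, and the lengths of each transcript and its parts (other values, in nucleotides, as deposited). Trimmomatic 0.36, Bowtie2 2.2.6, SAMtools and the build GRCm38.p4 are named in the submitters' processing notes; how fragments matching several transcripts were counted is not given in the sources used here. Among pairs of coding isoforms with equal coding length and transcript lengths within 5%, the mean chi-square between their counts was 0.432 in replicate 1 (480 pairs) and 0.451 in replicate 2 (131 pairs), where an independent split of fragments would give 1 and identical counting 0. Counts of isoforms therefore overlap in part. No sequences or coordinates of these genes are used here.

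For each gene the transcript with the largest count over both libraries was used, the longer one in a tie, and all 10 symbols matched the name table. CPM used library sizes scaled by TMM (edgeR 4.0.16, factors 1.07 and 0.931) over genes averaging 10 or more counts; density is CPM per kb of coding sequence. Log2 ratios use log2(CPM + 1), which understates changes of low genes. A 2-sided exact binomial test (scipy 1.17.1) was adjusted by Benjamini-Hochberg over all genes tested, at 0.05. It was tried on simulated Poisson counts of known scaling. Such counts hold no spread beyond counting error, so the trial does not show how the test behaves where there is more. Density ratios carry exact Clopper-Pearson intervals. With 1 group there was no contrast for a quasi-likelihood test. Alternatives were library totals, DESeq2 1.42.0 size factors, coding genes alone, other filters, pseudocounts, transcripts and lengths, and leaving out a replicate. All 10 genes are named; of the related lists, genes averaging 10 or more counts, at most 6 a list by density, and a few low genes and markers chosen after their values were seen. Members and lists were chosen with earlier results of these data known. One gene of the related lists is not reported here.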

Additional observations from a re-analysis of the deposited data

How the results depend on the processing

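No paired analysis was possible because only 1 group exists. The count of 0 filament genes differing between the libraries was the same under all 8 alternatives, among them library totals, DESeq2 size factors and the preset coefficient of variation. Between 4 (filter at 50 counts) and 10 of these genes were tested. Over all genes, 22 of 4392 were called with coding genes alone, 605 of 8366 with transcripts summed and 75 of 764 at the filter of 50 counts. With so few filament genes tested, a count of 0 does not set them apart from these shares. The neuronal share of 74.7% became 70.6% per coding length, 56.2% with transcripts summed and 76.3% without Nes, and lay between 73.5% and 75.8% with a replicate left out. The Nefl share of 34.8% became 31.1% with transcripts summed and lay between 32.3% and 37.4% with a replicate left out. The A-type lamin share of 21.3% became 21.7% per coding length, 18.2% on the longest coding sequence and 42.1% with transcripts summed, against 21.1% and 21.4% with a replicate left out. Summing counts shared fragments repeatedly by construction; the cause of the other changes was not tested. Library totals lower the median log2 ratio of all genes from 0.0041 to -0.20 and turned Gfap to -0.013, Lmna to -0.15 and Lmnb1 to -0.18. Prph became -0.25 and Lmna -0.51 on the longest coding sequence, and Lmna -0.57 and Lmnb1 -0.065 with transcripts summed. The tie rule for Nes was added after the data were seen.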
